A study of Homo sapiens with 6 samples.

Results

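After 2 h with the compound VT01454, HEK293A cells held less SRSF5 and SRSF7 mRNA than cells given vehicle. Of 39 genes for SR proteins, their relatives and hnRNP proteins, these 2 passed the test, both lower, where 0.616% of all tested genes were called lower and 1.89% in either direction. Neither call was kept on leaving out vehicle library 1 or any 1 of the VT01454 libraries. The counts are per gene, so coding transcripts and those removed by decay were not separated. SRSF5 averaged 194 ± 1.26 CPM with VT01454 and 250.1 ± 20.0 CPM with vehicle, and SRSF7 averaged 281 ± 2.74 CPM with VT01454 and 341 ± 18.6 CPM with vehicle (SD, n = 3 libraries each). The 39 genes were taken by symbol from the 60676 gene IDs of the count tables. All 39 were found and all 39 were among the 15577 genes with enough counts to test. The SR class holds 21 genes: 12 SRSF genes, TRA2A and TRA2B, 4 genes for larger or SR-related proteins and 3 LUC7-like genes. The hnRNP class holds 18 genes: 15 HNRNP genes, PTBP1, PTBP2 and RBMX.

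SR proteins bind exonic enhancers through RNA recognition motifs and recruit the spliceosome through an arginine-serine-rich (RS) domain, whose activity and location depend on phosphorylation. Heterogeneous nuclear ribonucleoproteins (hnRNPs) coat nascent transcripts and often oppose SR proteins by silencing exons. Many genes of both classes limit their own expression by splicing in an exon with a premature stop codon or by retaining an intron, so that the transcript is retained in the nucleus or removed by nonsense-mediated decay.

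The 2 groups were 3 libraries of HEK293A cells, an adherent human embryonic kidney line, given 20 nM VT01454 for 2 h, and 3 libraries of the same line given the DMSO vehicle over that time. VT01454 is known here by its code name, and the series title places it in work on phosphatidylinositol transfer proteins and the Hippo pathway. The libraries came from 1 line, and the labels do not say whether they came from separate cultures, so the p-values speak to the spread among these 6 libraries alone, which may be technical. Values are CPM, counts per 1000000 counts of the library after TMM scaling. In bulk RNA, a lower level in every cell and fewer cells holding the transcript cannot be told apart.

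Total counts were 28880374, 25066990 and 24646466 in the VT01454 libraries and 20962083, 19126039 and 26879796 in the vehicle libraries (exact two-sided permutation p = 0.3, the smallest possible being 0.1). Vehicle library 2, the shallowest, stood apart: its counts differed from each other library by a chi-square of 9.12 to 20.06 per degree of freedom, against 2.03 to 2.79 between VT01454 libraries and 7.61 to 8.58 over the other 7 pairs. Leaving out vehicle library 3 changed the calls over all tested genes more than leaving out library 2 did. That fit had 1170 genes higher and 636 lower, against 255 and 159 without vehicle library 2 and 198 and 96 with all libraries. Of the 39 members, 20 had their highest or their lowest CPM of the 6 libraries in vehicle library 2. The same count was not made for the other libraries or for all tested genes, so it does not set the members apart. The epithelial and mesenchymal genes KRT18, VIM and CDH2, known in HEK293 cells, stood at 113 to 325 CPM in every library, of which CDH2 was at 129 to 133 CPM with VT01454 and 113 to 128 CPM with vehicle. The nephric transcription factor gene EYA1 was at 15.1 to 15.9 CPM with VT01454 and 11.3 to 13.95 CPM with vehicle; the part of these shifts in the members' values was not tested. The kidney lineage genes PAX2 and LHX1 were at or below 0.708 and 0.111 CPM, and the neurofilament gene NEFM, known in HEK293 cells, varied between 0.140 and 6.58 CPM. The leukocyte genes PTPRC and CD3E were at 0 counts in every library, and the fibroblast genes COL1A1 and COL3A1 reached 26.8 and 4.54 CPM. The endothelial and squamous genes CDH5, PECAM1, KRT5 and KRT14 stayed at or below 0.245 CPM.

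hnRNP transcripts were the more abundant class. Per kilobase of annotated exon, HNRNPA1, whose protein silences exons and shuttles to the cytoplasm, led with 546 ± 4.14 CPM per kb with VT01454 and 541 ± 24.2 with vehicle. HNRNPA2B1, a close relative, followed at 261 ± 2.73 with VT01454 and 254 ± 11.99 with vehicle. The 8 highest levels per kb were all of the hnRNP class. SRSF3, the gene of the smallest SR protein, was the highest of the SR class, at 91.9 ± 2.42 CPM per kb with VT01454 and 108 ± 7.11 with vehicle. The lowest were PTBP2, the neuronal PTB paralogue, at 2.18 ± 0.0497 with VT01454 and 1.99 ± 0.0870 with vehicle, and SRSF12, a relative of SRSF10, at 4.73 ± 0.384 and 4.51 ± 0.255 in the same order of groups. Of the 38 pairs of neighbours in this order, 12 had ranges over the 6 libraries that did not overlap and 26 overlapped. Exon lengths are unions over all annotated transcripts, so these levels per kb are lower for genes with long rare exons.

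**Figure D1:**
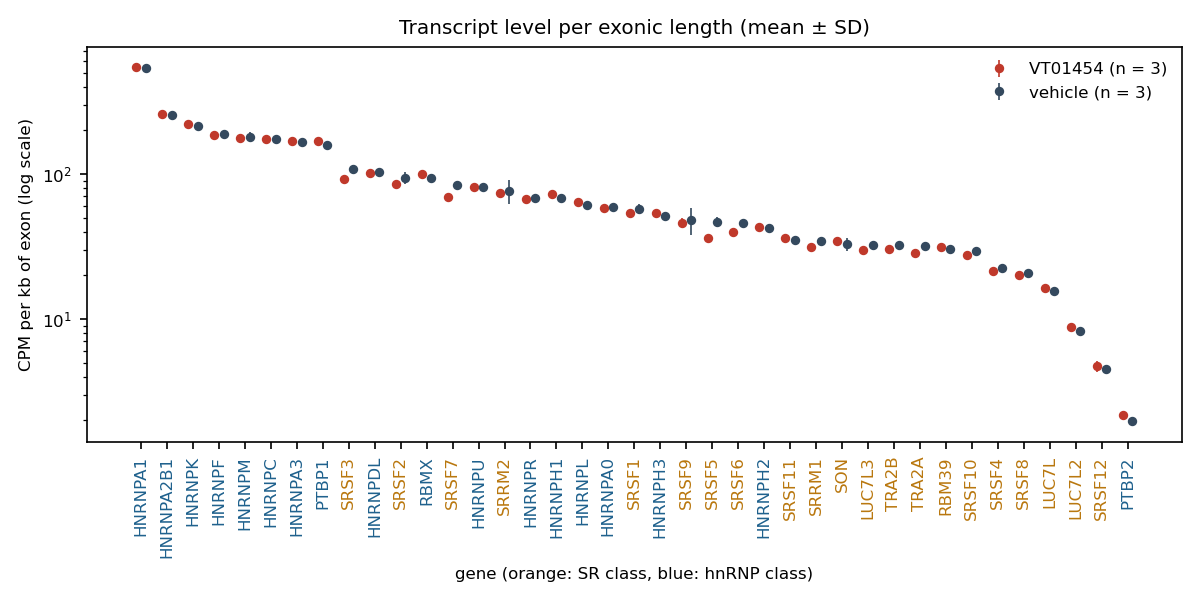
Mean CPM per kb of exon (log axis, error bars SD, n = 3 libraries) for the 39 genes, ordered by their level with vehicle, VT01454 left of vehicle for each gene. HNRNPA1 led at 546 with VT01454 and 541 with vehicle, and PTBP2 was the lowest at 2.18 with VT01454 and 1.99 with vehicle.

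Among the 12 SRSF genes, 2 fell, none rose and 10 did not pass at an adjusted p below 0.05; of all tested genes 1.89% were called, 0.616% lower and 1.27% higher. SRSF5 (SRp40; chromosome 14, 69726900 to 69772005, GRCh38) stood at 195, 193 and 193 CPM in the VT01454 libraries and at 241, 273 and 236 CPM in the vehicle libraries. Every VT01454 library lay below every vehicle library. The log2 fold change was −0.37 ± 0.06 (SE; edgeR quasi-likelihood adjusted p = 0.00829), so the level fell by 22.6%. SRSF7 (9G8; chromosome 2, 38743599 to 38751494), an SR protein with a zinc knuckle that also serves in mRNA export, stood at 283, 278 and 282 CPM in the VT01454 libraries and at 336, 362 and 326 CPM in the vehicle libraries. Here too the groups did not overlap. Its log2 fold change was −0.28 ± 0.06 (edgeR adjusted p = 0.0227), so the level fell by 17.7%.

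SRSF3 (SRp20; chromosome 6, 36594353 to 36605600), with SRSF7 an export adaptor, had 674, 644 and 645 CPM with VT01454 and 729, 826 and 753 CPM with vehicle. Its log2 fold change of −0.23 ± 0.06 did not pass (edgeR adjusted p = 0.0684), though it did in DESeq2 (adjusted p = 0.0118), which called 0.974% of its tested genes lower. SRSF6 (SRp55; chromosome 20, 43457928 to 43464247) had 184, 183 and 185 CPM with VT01454 and 199, 219 and 218 CPM with vehicle. Its log2 fold change was −0.21 ± 0.06 (edgeR adjusted p = 0.104, DESeq2 adjusted p = 0.0343). SRSF2 (SC35), used as a marker of nuclear speckles, had 257, 253 and 258 CPM with VT01454 and 259.6, 313 and 283 CPM with vehicle, a log2 fold change of −0.16 ± 0.07 (edgeR adjusted p = 0.310). In these 3 genes as well, the highest VT01454 library lay below the lowest vehicle library, by a narrow margin for SRSF2.

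The calls of SRSF5 and SRSF7 held without vehicle library 2 (log2 fold changes −0.30 and −0.24, edgeR adjusted p = 4.9e-04 and 0.00316) and without vehicle library 3 (−0.41 and −0.32, adjusted p = 5.6e-04 and 0.00145). Those 2 fits called 0.999% and 4.0% of all tested genes lower, against 0.616% with all libraries. Neither the SRSF5 nor the SRSF7 call was kept on leaving out vehicle library 1 or 1 of the VT01454 libraries: SRSF5 stood at −0.39, −0.37, −0.36 and −0.36 with an adjusted p of 0.0624 to 0.0961, and SRSF7 at −0.29, −0.29, −0.27 and −0.28 with an adjusted p of 0.119 to 0.200. SRSF7 had the same raw count as SRSF10 in VT01454 libraries 1 and 3 (8066 and 6890), and its log2 fold change without each of these libraries was −0.29 and −0.28.

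**Figure D2:**
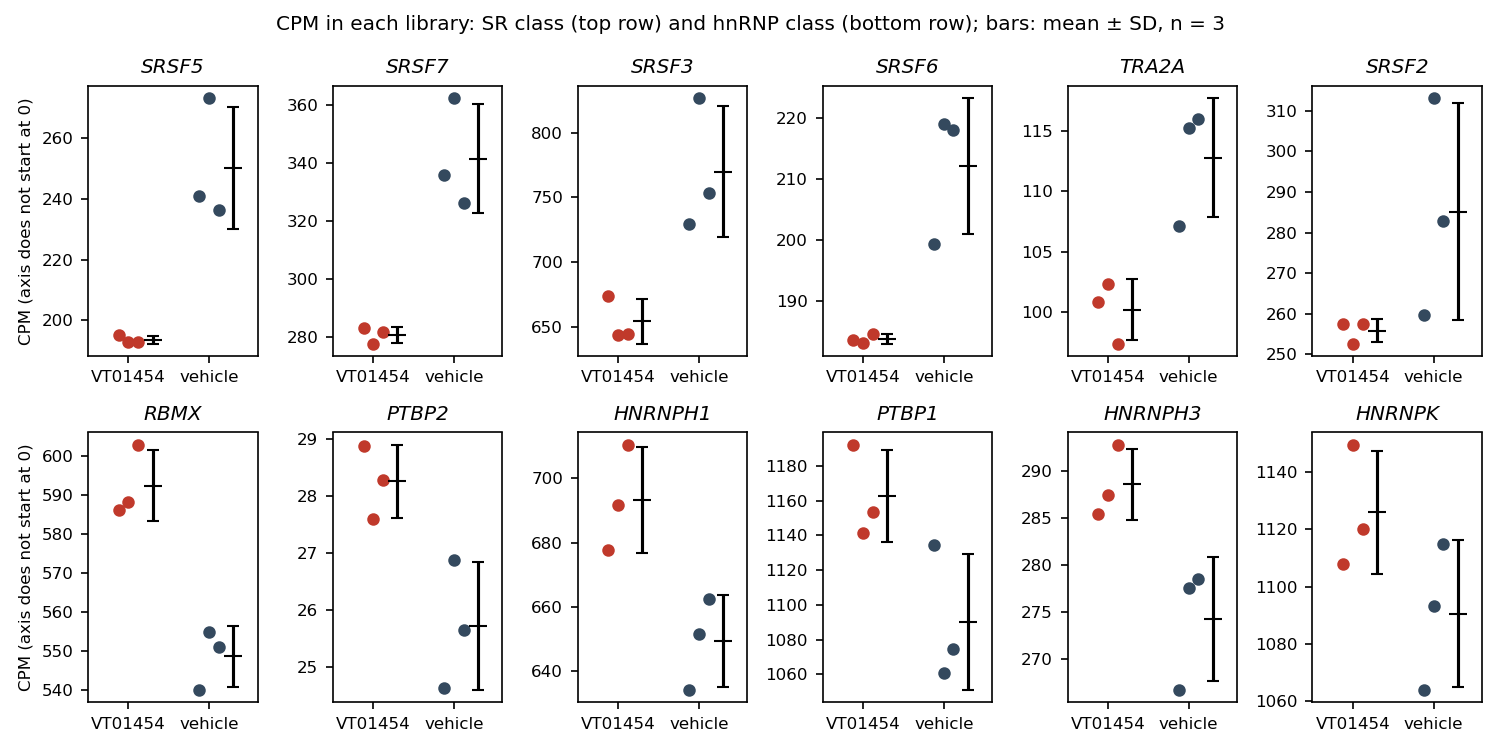
CPM in each library (points; black bars mean ± SD, n = 3) for the 6 members of each class with the smallest p, VT01454 left of vehicle; the axes do not start at 0. The VT01454 points of SRSF5 lie at 193 to 195 CPM, below the vehicle points at 236 to 273 CPM, and those of RBMX at 586 to 603 CPM, above the vehicle points at 539.9 to 555 CPM.

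The other 7 SRSF genes overlapped between the groups and did not pass. SRSF1 (SF2/ASF), the prototype of the family, averaged 179 ± 5.18 CPM with VT01454 and 193 ± 15.7 CPM with vehicle (log2 fold change −0.11 ± 0.07). SRSF10, whose protein represses splicing when dephosphorylated, averaged 285 ± 4.33 CPM with VT01454 and 302 ± 12.7 CPM with vehicle (−0.087 ± 0.05). SRSF4 (SRp75) averaged 192 ± 4.67 CPM with VT01454 and 199 ± 4.68 CPM with vehicle (−0.052 ± 0.05), and SRSF8, an expressed retrocopy related to SRSF2, 81.0 ± 2.74 CPM with VT01454 and 83.4 ± 2.61 CPM with vehicle (−0.042 ± 0.06). These 4 means lay below those with vehicle by less than the test could call. SRSF11, a U2AF65-interacting RS protein, averaged 305 ± 2.52 CPM with VT01454 and 299 ± 15.3 CPM with vehicle (0.029 ± 0.06), and SRSF12 averaged 21.5 ± 1.75 CPM with VT01454 and 20.5 ± 1.16 CPM with vehicle (0.069 ± 0.09). SRSF9 (SRp30c) varied most among vehicle libraries, with 156, 182 and 178 CPM with VT01454 and 197, 206 and 137 CPM with vehicle. Its low vehicle value was in library 3, and without that library SRSF9 had a log2 fold change of −0.23 (edgeR adjusted p = 0.0345), against −0.060 ± 0.15 with all 6. The fit without that library called 4.0% of all tested genes lower, against 0.616% with all 6 libraries. SRSF9 shares 1729 exonic bases with GATC on the opposite strand, and the counting strand is not given, so reads of the 2 genes may be mixed. The same holds for SRSF2, which shares 1106 of its 3017 exonic bases with MFSD11 on the opposite strand, and for HNRNPU and SON, which share 3502 and 582 opposite-strand bases with other genes. SRRM2, LUC7L2, HNRNPA2B1, HNRNPA3, HNRNPH3 and HNRNPK share 55 to 368 such bases, and none were found for SRSF3, SRSF5, SRSF6 and SRSF7. The search covered only protein-coding, antisense, lincRNA and processed-transcript genes of GENCODE release 29. The counting may have used another annotation.

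Summed over the 12 SRSF genes, the level was 2805, 2797 and 2810.0 CPM in the VT01454 libraries and 3011, 3315 and 3081 CPM in the vehicle libraries, a ratio of the group means of 0.894. Over the 18 hnRNP genes the sum was 17052, 16975 and 16931 CPM with VT01454 and 16388, 17089 and 16644 CPM with vehicle, a ratio of 1.02. The groups were apart for the SRSF sum and overlapped for the hnRNP sum. The SRSF sum amounted to 16.5%, 16.5% and 16.6% of the hnRNP sum with VT01454 and to 18.4%, 19.4% and 18.5% with vehicle. SRSF3, SRSF5, SRSF6 and SRSF7, chosen after their values were seen, summed to 1313 ± 20.5 CPM with VT01454 and 1574 ± 94.0 with vehicle, and the other 8 SRSF genes to 1492 ± 19.7 and 1562 ± 66.1 CPM in the same order of groups.

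The loci of the 4 SRSF genes with the lowest log2 fold changes show what a gene-level count holds. GENCODE release 29 annotates at least 1 nonsense-mediated-decay transcript for all 21 SR class genes and for 12 of the 18 hnRNP genes, and at least 1 retained-intron transcript for 18 and 11 of them. Counts per gene add these transcripts to the coding ones, so a change of level and a change between coding and decay transcripts were not separated. For each of the 4 genes 1 decay transcript, picked by name, is shown. GENCODE annotates 6 for SRSF7, 2 for SRSF3 and 1 each for SRSF5 and SRSF6. SRSF7-204 carries a 449-base exon (chromosome 2, 38748898 to 38749346, minus strand), SRSF3-203 a 456-base exon (chromosome 6, 36599821 to 36600276) and SRSF6-202 a 268-base exon (chromosome 20, 43459153 to 43459420). SRSF5-211 has a 1030-base exon (chromosome 14, 69769511 to 69770540). None of the 4 exons occurs with these ends in a protein-coding transcript of its gene. The last 30 bases of each annotated reading frame in the spliced decay transcript are printed 5′ to 3′ to show where it ends, with the premature stop codon in capitals.
SRSF5-211: atgacgaggagtgcctgtgggttatccTAA
SRSF7-204: aggtttcttcgtttgagtcagtcgcctTGA
SRSF3-203: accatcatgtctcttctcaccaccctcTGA
SRSF6-202: gccatgacgacagcagccttttgccatTAG
The stop codon ends 51, 28, 34 and 152 bases into these exons in the order printed.

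The promoter windows of SRSF5, SRSF7 and SRSF3 follow, as the members with the lowest log2 fold changes whose windows hold a searched motif. They run from 250 bases before to 50 after a start site (RefSeq, GRCh38.p14) at chr14:69766892-69767191 on the plus strand, chr2:38751312-38751611 on the minus strand and chr6:36594112-36594411 on the plus strand. The SRSF5 window lies inside the GENCODE span of that gene, which starts further upstream. Capitals mark motif matches, searched on either strand. The core promoter motif was TATAAA. The core of the cAMP response element was searched as TGACG, and the ETS family core as CCGGAAG, whose ends may touch other motifs. The TEAD family core, searched as GGAATG, and the CArG box bound by SRF had no match in the windows printed.
SRSF5: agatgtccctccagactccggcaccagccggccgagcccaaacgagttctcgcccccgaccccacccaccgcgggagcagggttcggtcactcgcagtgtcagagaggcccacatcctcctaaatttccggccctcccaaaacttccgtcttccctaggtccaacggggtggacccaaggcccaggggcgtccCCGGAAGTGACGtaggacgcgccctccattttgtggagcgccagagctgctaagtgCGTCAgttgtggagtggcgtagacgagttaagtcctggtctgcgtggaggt
SRSF7: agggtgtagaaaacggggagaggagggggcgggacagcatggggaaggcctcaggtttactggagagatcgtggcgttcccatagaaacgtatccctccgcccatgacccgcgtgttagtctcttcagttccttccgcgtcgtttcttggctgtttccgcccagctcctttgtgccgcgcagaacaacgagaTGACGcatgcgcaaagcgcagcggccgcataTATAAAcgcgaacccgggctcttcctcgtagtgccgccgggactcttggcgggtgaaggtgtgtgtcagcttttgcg
SRSF3: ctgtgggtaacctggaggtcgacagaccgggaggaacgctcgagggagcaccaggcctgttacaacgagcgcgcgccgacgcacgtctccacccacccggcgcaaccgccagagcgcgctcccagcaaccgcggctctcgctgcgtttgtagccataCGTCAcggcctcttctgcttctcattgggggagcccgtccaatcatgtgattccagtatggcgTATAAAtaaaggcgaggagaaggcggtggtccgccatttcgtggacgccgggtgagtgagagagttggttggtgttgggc
In the SRSF5 window the ETS core and a TGACG match abut. The SRSF7 and SRSF3 windows hold 1 TATAAA and 1 TGACG match each. A second SRSF7 window, at an upstream start, and the SRSF6 window hold none of the 5 motifs. Windows were found for 35 of the 39 members. TGACG lay in at least 1 window of 10 of 18 SR class genes and of 10 of 17 hnRNP genes, and in 24.6% of all 35116 windows. TATAAA lay in those of 3 SR class and 2 hnRNP genes and in 11.5% of all windows, CCGGAAG in those of 3 and 2 genes and in 10.3%, and GGAATG in those of 3 and 4 genes and in 14.0%. The CArG box lay in none of either class and in 1.29% of all windows. These matches are letters in a window, and some genes have several windows.

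The TRA2 genes encode homologues of the Drosophila sex-determination splicing factor Transformer-2. TRA2A had 101, 102 and 97.4 CPM with VT01454 and 107, 115 and 116 CPM with vehicle. The groups did not overlap, but the log2 fold change of −0.17 ± 0.06 did not pass (edgeR adjusted p = 0.2096). TRA2B, the more abundant in counts, averaged 360.5 ± 8.34 CPM with VT01454 and 379 ± 15.7 CPM with vehicle (−0.071 ± 0.05, edgeR adjusted p = 0.581). The log2 ratio of TRA2A to TRA2B was −1.87, −1.81 and −1.86 with VT01454 and −1.76, −1.78 and −1.71 with vehicle, so the groups were apart. Of the other paralogue ratios computed, SRSF6 to SRSF4, LUC7L3 to LUC7L2 and HNRNPA2B1 to HNRNPA1 were also apart. Those of SRSF7 to SRSF3, HNRNPH2 to HNRNPH1, LUC7L to LUC7L2 and PTBP2 to PTBP1 overlapped. How often such ratios are apart among other genes was not counted.

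The larger SR-related proteins and LUC7-like proteins held no gene that passed. SRRM1, a splicing coactivator, had 253, 261 and 259 CPM with VT01454 and 284, 264 and 300 CPM with vehicle (log2 fold change −0.13 ± 0.06, edgeR adjusted p = 0.326). SRRM2, a scaffold of nuclear speckles, had 972, 984 and 987 CPM with VT01454 and 1117, 793 and 1122 CPM with vehicle (−0.043 ± 0.12, edgeR adjusted p = 0.897). SON, the other speckle scaffold, had 443, 461 and 471 CPM with VT01454 and 447, 385 and 470 CPM with vehicle (0.078 ± 0.07, edgeR adjusted p = 0.647). All 3 had their lowest vehicle value in library 2, the library that stood apart. Leaving it out raises their vehicle means. SRRM1 and SRRM2 were then called lower (−0.18 and −0.19, edgeR adjusted p = 0.0351 and 0.00527) and SON stood at −0.0010. In that fit 0.999% of all tested genes were called lower. Without vehicle library 1 or 3, SRRM1 stood at −0.13 and −0.091 and SRRM2 at 0.035 and 0.037, and neither gene passed. RBM39 (CAPER-alpha), a relative of U2AF65, had 378, 367 and 375 CPM with VT01454 and 362, 362 and 366 CPM with vehicle (0.039 ± 0.05). The groups did not overlap for SRRM1 or RBM39.

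LUC7L, LUC7L2 and LUC7L3, relatives of the yeast U1 snRNP protein Luc7, differed by 0.073 ± 0.06, 0.093 ± 0.06 and −0.11 ± 0.06. LUC7L averaged 101 ± 1.11 CPM with VT01454 and 96.5 ± 6.05 CPM with vehicle, with overlap. LUC7L2 stood higher in every VT01454 library, with 54.0, 57.3 and 54.9 CPM against 52.7, 53.4 and 49.7 CPM with vehicle, and LUC7L3 lower, with 246, 246 and 241 CPM against 249.7, 285 and 255 CPM with vehicle. The log2 ratio of LUC7L3 to LUC7L2 was 2.19, 2.10 and 2.14 with VT01454 and 2.24, 2.42 and 2.36 with vehicle. LUC7L2 shares 1445 exonic bases with genes on its own strand, among them the readthrough gene FMC1-LUC7L2, which was at 0 counts in every library. SRSF1 shares 1890 of its 3340 exonic bases with a gene on its own strand, HNRNPL 561 and HNRNPH2 362. The partner genes of these members were also at 0 counts in every library. The part of same-strand overlap in the members' counts was not tested.

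In the hnRNP class 0 of 18 genes passed in edgeR, in DESeq2 or in limma-voom, a count near the background, since 1.89% of all tested genes passed in edgeR. With an unadjusted edgeR p below 0.05 there was 1 of 18, where 14.4% of all tested genes had one. Log2 fold changes lay between −0.044 and 0.14 with a median of 0.032, against a median of −0.0073 over all tested genes and −0.071 in the SR class. RBMX (hnRNP G), an X-linked gene, was the member with the smallest p: it had 586, 588 and 603 CPM with VT01454 and 539.9, 555 and 551 CPM with vehicle (0.11 ± 0.05, edgeR adjusted p = 0.331). Every VT01454 library of RBMX lay above every vehicle library.

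PTBP1, which represses neuronal exons through pyrimidine tracts, had 1192, 1142 and 1154 CPM with VT01454 and 1135, 1061 and 1075 CPM with vehicle (0.093 ± 0.05, edgeR adjusted p = 0.432). PTBP2, which takes its place in neurons, had 28.9, 27.6 and 28.3 CPM with VT01454 and 24.6, 26.9 and 25.7 CPM with vehicle (0.14 ± 0.07, edgeR adjusted p = 0.418). Neither gene overlapped between groups, but their log2 ratio did: PTBP2 to PTBP1 stood at −5.37, −5.37 and −5.35 with VT01454 and at −5.53, −5.30 and −5.39 with vehicle.

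HNRNPH1, whose protein binds G runs, had 678, 692 and 710 CPM with VT01454 and 634, 652 and 663 CPM with vehicle (0.094 ± 0.05, edgeR adjusted p = 0.4198). Its relative HNRNPH3 had 285, 287 and 293 CPM with VT01454 and 267, 278 and 278 CPM with vehicle (0.073 ± 0.05, edgeR adjusted p = 0.545). HNRNPK, a KH-domain protein of C-rich sites, had 1108, 1149 and 1120 CPM with VT01454 and 1064, 1093 and 1115 CPM with vehicle (0.046 ± 0.05, edgeR adjusted p = 0.704). The groups were apart for HNRNPH1 and HNRNPH3 and overlapped for HNRNPK.

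The other hnRNP genes had larger p-values. HNRNPL, which binds CA repeats, had 434, 433 and 435 CPM with VT01454 and 432, 429 and 398 CPM with vehicle (log2 fold change 0.050 ± 0.05), without overlap. HNRNPA3 averaged 1026 ± 9.19 CPM with VT01454 and 995 ± 38.4 CPM with vehicle (0.044 ± 0.05), HNRNPA2B1 2415 ± 25.3 and 2352 ± 111 CPM in that order of groups (0.038 ± 0.05), and HNRNPH2, a gene on the X chromosome, 95.8 ± 3.71 and 94.2 ± 4.16 CPM (0.025 ± 0.06). HNRNPA1 averaged 2779 ± 21.1 CPM with VT01454 and 2754 ± 123 CPM with vehicle (0.013 ± 0.05), and HNRNPC, which binds U tracts, 1284 ± 26.2 and 1276 ± 42.4 CPM in that order (0.0090 ± 0.05). Below 0 stood HNRNPU, a nuclear scaffold protein, with 1818 ± 26.5 CPM under VT01454 and 1830 ± 88.0 CPM under vehicle (−0.0094 ± 0.05), and HNRNPF, a G-run binder like HNRNPH1, with 604 ± 7.78 and 609 ± 13.0 CPM in that order (−0.013 ± 0.05). The intronless HNRNPA0 averaged 511 ± 7.54 CPM with VT01454 and 518 ± 20.9 CPM with vehicle (−0.019 ± 0.05), and HNRNPDL, a relative of HNRNPD, 556 ± 4.21 and 566 ± 23.0 CPM in that order (−0.026 ± 0.05). HNRNPM averaged 994 ± 10.5 CPM with VT01454 and 1018 ± 81.4 CPM with vehicle (−0.034 ± 0.06), and HNRNPR, a relative of SYNCRIP, 579 ± 7.90 and 597 ± 18.6 CPM in that order (−0.044 ± 0.05). Apart from HNRNPL, these genes overlapped between the groups. Reads of close copies may have been split: the 74 pseudogenes named after HNRNPA1 held 8860 counts over all libraries, 2.21% of the 401559 of HNRNPA1, and those named after HNRNPC 2.28% of its counts.

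**Figure D3:**
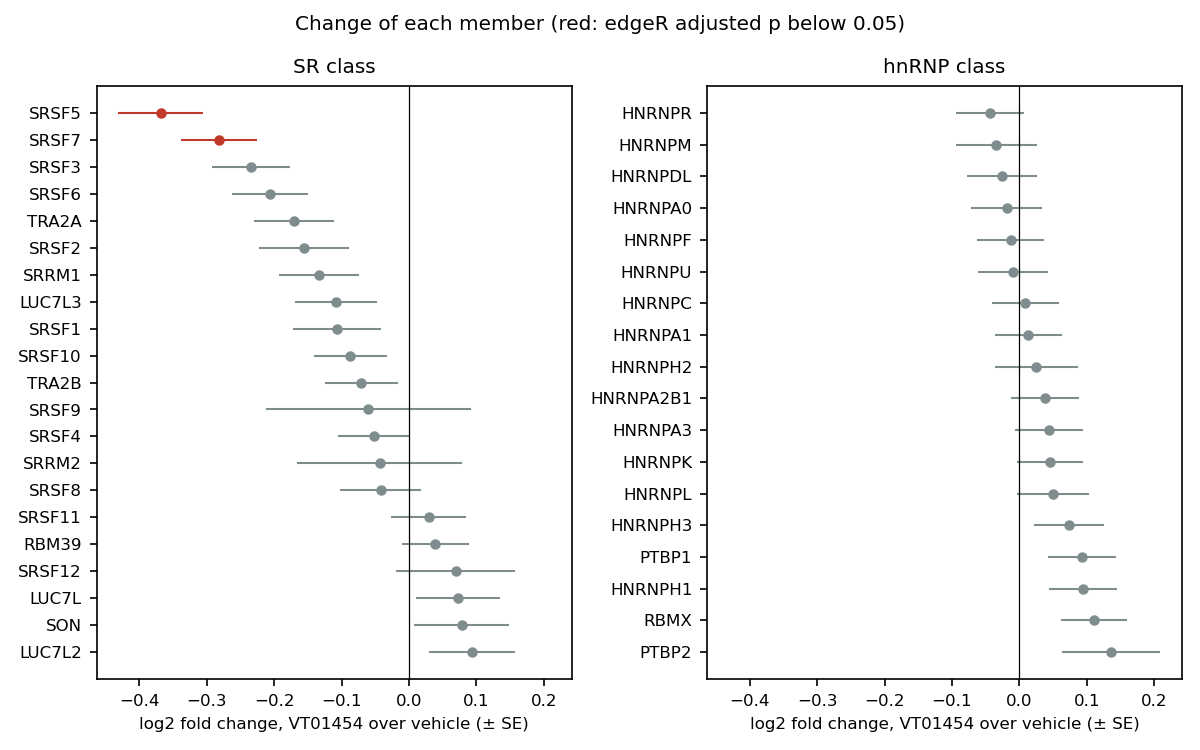
Log2 fold change of VT01454 over vehicle (points, bars SE, n = 3 libraries each) for the SR class on the left and the hnRNP class on the right; red marks an edgeR adjusted p below 0.05. SRSF5 at −0.37 and SRSF7 at −0.28 are the red points, and the hnRNP genes span −0.044 to 0.14.

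The SR class had 2 of 21 genes called lower and 0 higher, where 0.616% and 1.27% of all tested genes were. A log2 fold change below 0 was found for 15 of the 21, and for 8038 of the 15577 tested genes. Every VT01454 library lay below every vehicle library for 8 SR class genes and above for 2, where 9.84% of all tested genes were lower and 11.3% higher without overlap. In the hnRNP class 0 were lower and 6 higher without overlap. A log2 fold change above 0 was found for 12 of the 18, and for 7539 of the 15577 tested genes. The difference between the classes was not tested, since members are not replicates. The members varied less among VT01454 libraries than among vehicle libraries: the median ratio of highest to lowest CPM was 1.03 with VT01454 and 1.09 with vehicle, and 34 of 39 members had the wider ratio with vehicle. This was not particular to the members. Over the tested genes, VT01454 libraries differed from each other by a chi-square of 2.03 to 2.79 per degree of freedom. Between vehicle libraries it was 9.12, 7.88 and 20.06.

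**Figure D4:**
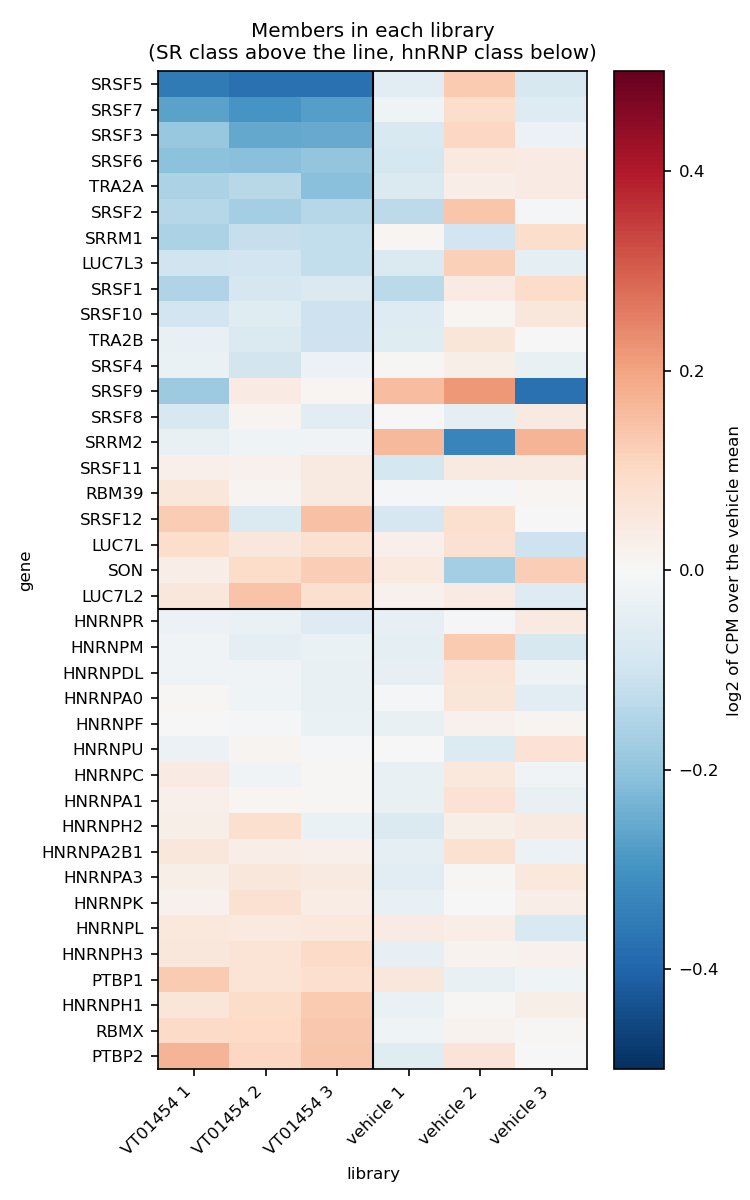
Log2 of each member's CPM over its vehicle mean in every library, VT01454 libraries left of vehicle libraries, SR class above the line and hnRNP class below. The blue block at the upper left holds SRSF5, SRSF7, SRSF3 and SRSF6 in all 3 VT01454 libraries, and the darkest vehicle cells are SRRM2 in library 2 and SRSF9 in library 3.

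The genes around these classes were counted over 8 lists of 138 genes, 131 of them tested. Of these 131, 3 rose, none fell and 128 did not pass in edgeR, where 1.27% of all tested genes were higher and 0.616% lower. All 3 were in the list of SR protein kinases and phosphatases, which had 12 tested genes. Like the other lists, it was chosen with earlier results of these data known. The 3 that rose encode kinases that phosphorylate RS domains. CLK1 had 62.7, 67.1 and 59.1 CPM with VT01454 and 30.3, 29.9 and 30.9 CPM with vehicle (log2 fold change 1.05 ± 0.07, edgeR adjusted p = 3.0e-06). CLK4 averaged 30.6 ± 0.90 CPM with VT01454 and 18.1 ± 1.02 CPM with vehicle (0.76 ± 0.08, edgeR adjusted p = 1.5e-04), and CLK3 averaged 55.2 ± 0.909 CPM with VT01454 and 37.7 ± 0.818 CPM with vehicle (0.55 ± 0.06, edgeR adjusted p = 3.7e-04). The other 9 tested kinase and phosphatase genes of that list did not pass.

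The remaining 7 lists had 0 calls in edgeR, where 1.89% of all tested genes were called and 14.4% had an unadjusted p below 0.05. Their medians and counts at an unadjusted edgeR p below 0.05 were 0.023 and 5 of 24 for other RS-domain genes, −0.013 and 0 of 14 for other hnRNP-like genes, and −0.058 and 0 of 10 for Sm core and U1 snRNP genes. They were −0.044 and 0 of 15 for U2 snRNP and U2AF genes, 0.013 and 2 of 18 for the tri-snRNP and catalytic step, 0.012 and 6 of 25 for other sequence-specific regulators and −0.019 and 0 of 14 for nonsense-mediated decay factors. Of these, named after their values were seen, PRPF38B, a relative of the yeast splicing factor Prp38, had the smallest p of the RS-domain list (0.21 ± 0.06, edgeR adjusted p = 0.0979), and MBNL1, a muscleblind splicing regulator, that of the other regulators (0.27 ± 0.08, edgeR adjusted p = 0.126).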

How the data were processed

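RNA extraction used RNeasy Plus columns and library preparation NEBNext Ultra II RNA, per the labels' protocols. HISAT2 2.2.1 and HTSeq 0.9.1, with hg38, appear in the submitters' processing notes. The sources used here do not give the annotation release, strand setting, trimming or handling of multi-mapped reads. The authors deposited raw counts of reads per Ensembl gene, without normalization. Symbols matched 60357 of 60676 IDs, and GENCODE release 29 gave coordinates, transcript classes and exon lengths for 58503.

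edgeR 4.0.16 in R 4.3.3 was run on all genes: filterByExpr, TMM, robust quasi-likelihood F-test of VT01454 against vehicle, two-sided, Benjamini-Hochberg over all tested genes, calls at an adjusted p below 0.05. The SE is the log2 fold change over the square root of F. The 39 members, the 8 gene lists and the motifs were chosen with earlier results of these data known, so no test of a list was made. Values in every library are given for members past the threshold and, in each class, the 6 with the smallest p; the other members get mean and log2 fold change, and values by library where chosen after they were seen. List genes are named where they passed, and PRPF38B and MBNL1, which did not pass, were chosen after their values were seen. Alternatives were DESeq2 1.42.0, limma-voom (limma 3.58.1), other scalings, filters and thresholds, a replicate block, and leaving out each library.

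One count was worth 0.0346 to 0.0523 CPM. The libraries share replicate numbers, but the labels do not say that a number marks a shared day or culture.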

Additional observations from a re-analysis of the deposited data

How the results depend on the processing

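Leaving out 1 library at a time gave 0 to 5 SR class genes called lower, against 2 with all libraries: 0 without vehicle library 1 or any VT01454 library, 5 without vehicle library 2 (SRSF3, SRSF5, SRSF7, SRRM1, SRRM2) and 5 without vehicle library 3 (SRSF3, SRSF5, SRSF6, SRSF7, SRSF9), where 4.0% of all genes were called lower. No SR class gene was called higher and no hnRNP gene called either way under any alternative run; the smallest adjusted p in the hnRNP class was 0.123 (RBMX without vehicle library 3). The same fits gave 73 to 1170 genes higher and 20 to 636 lower among all genes, against 198 and 96, and medians of −0.10 to −0.064 for the SR class and 0.0054 to 0.047 for the hnRNP class. DESeq2 called 4 SR class genes lower. Without a count filter 508 genes were higher and 205 lower in all, and the class medians were −0.058 and 0.045. With library size alone they were −0.095 and 0.0081, SRSF3 passed (adjusted p = 0.0396), and the sums with VT01454 were 2778.5 CPM for the SRSF genes, 5683 for the SR class and 16830 for the hnRNP class. The vehicle sums were then 3157, 6172 and 16823 CPM in that order. The hnRNP sums of the 2 groups were thus nearly equal, where TMM scaling gave a ratio of 1.02. At an adjusted p below 0.01, 94 genes were higher, 31 lower and 1 SR class gene (SRSF5) was lower; with a fold of at least 1.5 these were 60, 32 and 0. The causes were not tested.

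With the replicate number as a block the SR class again had 2 genes lower, with SRSF5 at −0.37 (adjusted p = 0.00484) and SRSF7 at −0.28 (0.0287). Deviations of same-numbered libraries correlated at −0.072, 0.0010 and 0.0020 across genes, and those of differently numbered libraries at −0.037 to 0.043. With 3 libraries in each group, these values cannot decide whether a number marks a shared day or culture. Uncalled members whose sign turned were, over single libraries left out, SRSF9 (−0.23 to 0.049), SRSF11 (−0.012 to 0.050), SRRM2 (−0.19 to 0.037), SON (−0.0010 to 0.14), HNRNPA0 (−0.047 to 0.014), HNRNPA1 (−0.0075 to 0.052), HNRNPC (−0.0078 to 0.037), HNRNPDL (−0.045 to 0.0092), HNRNPF (−0.030 to 0.0014), HNRNPH2 (−0.010 to 0.057), HNRNPM (−0.076 to 0.034) and HNRNPU (−0.042 to 0.025). With library size alone HNRNPA1 stood at −0.010 and HNRNPC at −0.014, and without a count filter HNRNPF at 0.0008 and HNRNPU at 0.0039. The planned comparison of protein composition was not run.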

Other observations

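SRSF7 and SRSF10, which lie on different chromosomes, had the same raw count in 2 of the 6 libraries: 8066 in VT01454 library 1 and 6890 in VT01454 library 3. In VT01454 library 2 they had 6915 and 7213 counts, and in the vehicle libraries SRSF7 had 7120, 6941 and 8837 and SRSF10 had 6125, 5835 and 8508. Both of these VT01454 libraries enter the call of SRSF7, and whether the equal counts are a coincidence or arose upstream of the deposited tables was not tested. The log2 ratio of HNRNPA2B1 to HNRNPA1, the 2 highest members per kb, was −0.20, −0.20 and −0.21 in the VT01454 libraries and −0.24, −0.22 and −0.22 in the vehicle libraries, so the groups were apart although neither gene passed. The group means of this ratio differed by only 0.025. It belongs to the paralogue ratios given above, and how often such ratios are apart among other genes was not counted.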
